A study of Mus musculus with 6 samples.

Results

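Endothelial cells of the mouse testis were taken from 6 droplet single-cell RNA libraries as the barcodes that met a marker rule. Mitochondrial genes held at most 20% of a barcode's unique molecular identifiers (UMIs, each marking 1 captured RNA molecule), and Pecam1, Cdh5, Kdr, Emcn, Flt1, Esam and Tie1 summed to at least 4 UMIs from at least 3 of these 7 genes. The rule kept 153 of 51794 barcodes within the mitochondrial limit. The mice were males of the outbred ICR stock in both groups, and no transgene or allele is named. Per the labels' protocols they were bought at 6 weeks of age and adapted for 1 week. They then spent 30 minutes a day for 12 weeks in a chamber with the smoke of 15 cigarettes (smoking) or were placed in a chamber without smoke (control), and the age label of 8 weeks differs from that schedule. Each group had 7 mice and 3 libraries from the left testis. Nothing ties a library to a mouse, so every p-value given here measures only the spread between libraries, which may be technical.

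Endothelial cells line blood and lymphatic vessels. In the testis the vessels run between the seminiferous tubules and around clusters of Leydig cells, and they form the first filter between the blood and the germ cells, outside the barrier that Sertoli cells build. Tight junctions, efflux pumps and carriers make such a filter in the brain, and some of the same pumps are known in testis vessels. Endothelial cells also release factors that act on their neighbours, among them chemokines and growth factors.

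Controls 1 to 3 gave 15, 27 and 29 members, smoking libraries 1 to 3 gave 20, 40 and 22, and none of their barcodes occurred in more than 1 library (365 of 53886 distinct deposited barcodes did). The libraries held 39607204 to 78455606 UMIs and 8285 to 9411 retained barcodes with medians of 2548 to 2932 UMIs. The members held 2555873 UMIs in all, with a median of 8253 per barcode. Of these UMIs 41.8% came from 5 barcodes of 53715 to 411540 UMIs each, whereas the next deepest barcode had 29804. The 5 deep barcodes lay in control 1 (1 barcode, 51.3% of that library's member UMIs), smoking 1 (1 barcode, 67.7%), smoking 2 (2 barcodes, 53.6%) and smoking 3 (1 barcode, 25.9%). None of the 5 held a UMI of Cldn5, Abcb1a or Mfsd2a, each met the rule with 3 genes, and mitochondrial genes made up at most 0.0639% of their UMIs against a median of 3.29% in the others. Levels are therefore given over the other 148 members, as CPM (UMIs of a gene per 1000000 of the members' summed UMIs in a library), mean ± SD over the 6 libraries. Tests and log2 folds are on all 153 unless stated. List counts against mesenchyme that differ without the deep barcodes, and calls of single genes that do, are also given on the 148.

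The label was checked against genes outside the rule. Cldn5, the claudin of endothelial tight junctions, had a UMI in 144 of the 153 members, and in 0% of 406 macrophage barcodes, a class that should lack it (median depth 8151 UMIs in the 148 members and 4666 in the macrophages). The pan-endothelial list of 30 genes summed to 9376 to 10058 CPM in control libraries and 8164 to 9663 in smoking libraries. Several defining markers of other types were at or near 0 over the 148 members. Col1a1, Dpt and Lum of mesenchyme, Csf1r of macrophages and Fshr of Sertoli cells had 0 UMIs, which allows up to 2.02 CPM (3 counts, counting error only), and Ptprc, carried by all leukocytes, had 2 UMIs. The immune list of 15 genes summed to 40.9 to 59.6 in controls and 16.2 to 57.2 in smoking libraries. Lists of other types were higher. The mesenchymal list of 10 genes summed to 518 to 755 CPM in controls and 959 to 1446 in smoking libraries, mostly through Mgp with 1248 UMIs, and the Sertoli list of 10 genes to 291 to 484 and 194 to 507, with Wt1 among its members. The pericyte and smooth muscle list of 13 genes summed to 2614 to 3303 CPM in controls and 992 to 2438 in smoking libraries. The abundant spermatid list of 15 genes summed to 20852 to 22450.0 in controls and 19953 to 75476 in smoking libraries, and its gene Prm1 had a UMI in each of the 148 members and each of the 406 macrophage barcodes. Some single members were rich in these genes, against a median of 2.62% of UMIs over the 148. In smoking 3 they made up 27.9% of a member of 26865 UMIs and 16.3% of another of 20874 UMIs. The part of spermatid RNA in the results was not tested.

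The genes of the rule are given as a description with no test, since they chose the members. Esam, a junctional adhesion molecule, stood at 455 ± 31.8 CPM, Flt1, a VEGF receptor, at 418 ± 38.9, and Cdh5 (VE-cadherin), the cadherin of endothelial contacts, at 330.1 ± 25.4. Emcn, a sialomucin of capillaries and veins, stood at 307 ± 45.7, Kdr, the main signalling VEGF receptor, at 303 ± 56.0, Pecam1 at 191 ± 43.9 and Tie1 at 97.8 ± 22.3. Just inside the threshold lay 15 barcodes with 4 or 5 UMIs, and 14 of them held Cldn5. Just outside lay 7 barcodes with 3 UMIs from 3 genes, of which 4 held Cldn5. A further 66 barcodes had at least 4 UMIs from only 2 genes, and of these 42 had over 50000 UMIs and 6 held Cldn5.

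**Figure D1:**
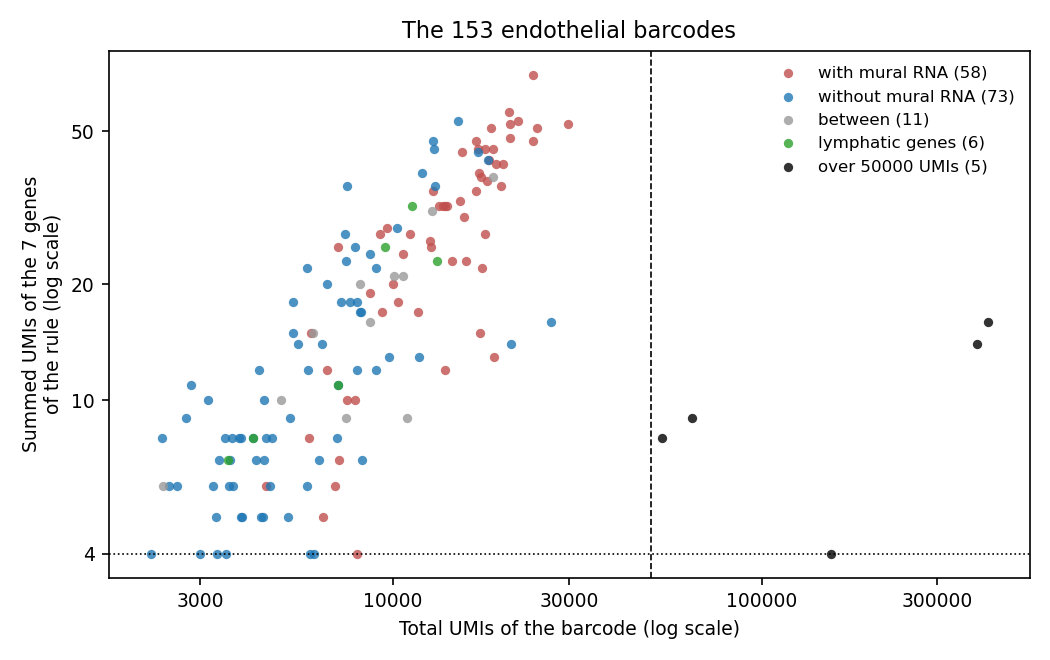
Each point is 1 of the 153 endothelial barcodes, with its total UMIs (horizontal axis, log scale) against the summed UMIs of the 7 genes of the rule (vertical axis, log scale) and colours for the sets described in the text. The dotted line marks the threshold of 4 UMIs and the dashed line 50000 total UMIs, beyond which the 5 deep barcodes lie with 4 to 16 UMIs of the rule genes.

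The members fell into sets that differed in RNA of the vessel wall. These sets were drawn after their values were seen and carry no test. Of 13 genes of pericytes and smooth muscle (together mural cells, which wrap vessels), 58 barcodes held a UMI of at least 7, 73 held at most 2 and 11 lay between, leaving out 6 barcodes with lymphatic genes and the 5 deep ones. Rgs5, a regulator of G-protein signalling that marks pericytes, stood at 1350.0 CPM in the set with mural RNA and at 84.3 in the set without. Pdgfrb, the pericyte receptor for PDGF-B, stood at 238 and 0, Notch3 at 218 and 0, and Kcnj8, a potassium channel of pericytes, at 217 and 0. The smooth muscle gene Myh11 stood at 155 and 0, against 1458 ± 324 in myoid barcodes. Rgs5, Pdgfrb, Notch3 and Myh11 are among the 13 genes, so the choice of the sets fixes the direction of these differences. Endothelial genes differed less between the sets: Cldn5 stood at 2575 and 2419.7, Abcb1a at 523 and 469.9, and Mal at 1505 and 1349. Across the 148 barcodes Rgs5 and Cldn5 had a Spearman correlation of -0.003, a description over barcodes that share libraries and differ in depth. The set with mural RNA had a median of 14830 UMIs and the set without 5507, and 55 of the 58 also met the marker rule for myoid cells (at least 4 UMIs from at least 3 of Acta2, Myh11, Tagln, Cnn1, Des, Actg2 and Myl9). That rule shares Acta2, Myh11, Tagln, Cnn1 and Des with the 13 genes, so the overlap follows in part from the choice of the sets. A doublet caller marked 7 of the 153 members, of which 1 was in the set with mural RNA, and no member was removed as a doublet. Whether endothelial and mural cells shared a droplet was not tested.

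**Figure D2:**
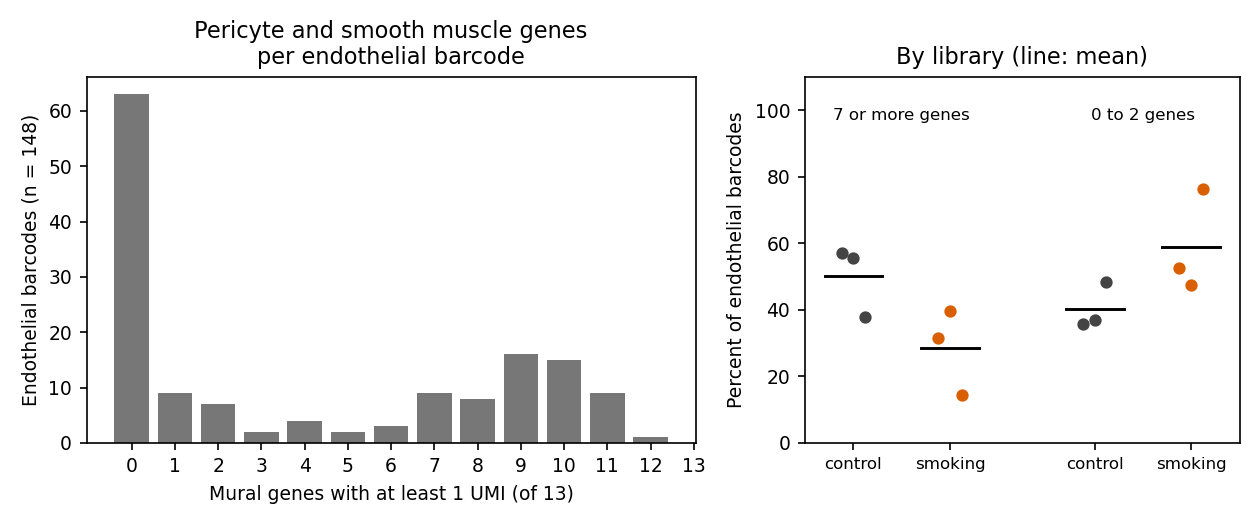
The left panel counts, over the 148 members, how many of 13 pericyte and smooth muscle genes had a UMI in a barcode (horizontal axis) and how many barcodes had that count (vertical axis), and the right panel gives the percent of members with at least 7 and with 0 to 2 such genes (lymphatic barcodes left out) in each control and smoking library, with lines at the mean. The left counts pile up at 0 (63 barcodes) and again from 7 upward, and the points of the 2 groups overlap in both sets.

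A small set of 6 barcodes carried lymphatic genes (at least 20 UMIs of Prox1, Lyve1, Ccl21a and Mmrn1, with a range of 28 to 412), 3 from control and 3 from smoking libraries. Ccl21a, the chemokine with which lymphatic vessels guide leukocytes, stood at 14987 CPM in this set and at 0 in the set without mural RNA. Prox1, the transcription factor of lymphatic identity, stood at 555, Lyve1 at 2118 and Mmrn1 at 2220.3, values that the choice of the set fixes. Flt4, the receptor for VEGF-C, was not used in that choice and stood at 761 against 30.1 in the set without mural RNA. Pumps and carriers of the barrier were low in the 6: Mfsd2a stood at 0, Slco1a4 at 0, Mal at 0 and Abcb1a at 20.6 CPM, in 1 barcode. Cldn5 had a UMI in all 6. Plvap, the diaphragm protein of fenestrated and lymphatic endothelium, had a UMI in 3 of the 6 and in 8 of all 153 members. The caller marked 3 of the 6 as doublets.

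For comparison, 5 other somatic classes were drawn with marker rules of the same form, and barcodes passing more than 1 rule were left out of them. Tests were made against the 208 mesenchymal barcodes (Pdgfra, Col1a1, Col1a2, Col3a1, Lum, Tcf21, Dpt) and the 166 myoid barcodes, the contractile cells around tubules and vessels. Summed UMIs per class and library were tested with edgeR's quasi-likelihood test with library as a term, and a gene was called at an adjusted p under 0.05 and a log2 fold of at least 1 in size. Against the mesenchymal class 587 of 9058 tested genes (6.48%) were higher in the members and 840 (9.27%) were lower. Against the myoid class 1917 (21.2%) were higher and 1484 (16.4%) were lower. Without the 5 deep barcodes 1082 of 7415 genes (14.6%) were higher and 761 (10.3%) lower than in mesenchymal barcodes, and 1653 (22.3%) and 1387 (18.7%) than in myoid barcodes. Cells chosen by endothelial genes had to differ in genes that go with those, so the folds describe which groups set these cells apart. Of 26 tested genes of the pan-endothelial list 23 were higher than in mesenchyme and 1 (Ly6a) was lower, and 24 and 1 of 26 without the deep barcodes. Over the 350 listed and named genes tested both ways, the log2 fold over mesenchyme was higher without the deep barcodes by a median of 0.672 (quartiles 0.346 and 0.727). Log2 folds over mesenchyme given on all 153 are thus mostly below the ratio of the levels beside them. For genes higher in the members that makes the difference smaller, and for genes lower in them it makes the decrease larger. Lrp1, for example, had a log2 fold of -3.75 on all 153 and -3.01 without the deep barcodes. Against myoid barcodes the log2 fold moved by a median of -0.346, and the part of each class in these shifts was not tested. The myoid class lost deep barcodes too, from 166 to 155, while mesenchyme kept its 208. Myoid UMIs fell from 406507 to 116481 in control 1, 655811 to 136202 in control 2 and 698228 to 136436 in control 3. They fell from 347604 to 248340 in smoking 2 and 626609 to 200027 in smoking 3, and stayed at 126459 in smoking 1. Myoid counts and folds on all 153 use the larger sums, and myoid levels the smaller. Of the 350, 58 gained a call against mesenchyme, 7 lost one and 0 reversed. Against myoid barcodes 28 gained a call, 26 lost one and 0 reversed.

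The junctions of the endothelial barrier were read first. Of 12 tested junction genes 9 were higher than in mesenchymal barcodes and 9 higher than in myoid barcodes, and 0 were lower, with a median log2 fold over mesenchyme of 1.78 beside 0.005 over all genes, and without the deep barcodes 7 of 10 were higher than in mesenchyme. Cldn5 (chr16:18776847-18778262, plus strand) stood at 3082, 2836 and 2458 CPM across the 3 control libraries, and at 2379, 2192 and 2248 across the smoking ones. All 6 values lay above the mesenchymal mean of 1.38 ± 3.39 and the myoid mean of 8.55 ± 20.9. Mesenchyme had 1 UMI in all, a ratio of 2542 (95% counting interval 456 to 100410.0), with an edgeR adjusted p of 2.5e-15, and the log2 fold over myoid barcodes was 9.55 ± 0.50 (SE, edgeR adjusted p = 6.4e-16). Tjp1, the scaffold that ties junctions to actin, stood at 201 ± 26.0 against 32.3 ± 13.9 in mesenchyme (log2 fold 2.08 ± 0.34). Lsr, a protein of contacts between 3 cells, stood at 190.5 ± 58.6 against 1 UMI in all, a ratio of 196 (95% counting interval 35.3 to 7759) in mesenchyme, and the adhesion molecule Jam2 at 103 ± 25.7 against 13.5 ± 10.8 (2.29 ± 0.54). Ocln (occludin) was sparse, with 32 UMIs in 27 of the 148 members (18.2%) and a UMI in 0% of macrophage barcodes. Cldn1 and Cldn3, claudins of epithelia and of the Sertoli barrier, each had 0 UMIs.

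Carriers and pumps formed the second group. Of 19 tested barrier transporters 9 were higher than in mesenchyme, 3 were lower and 7 were not called, with a median log2 fold of 1.50, and without the deep barcodes 12 were higher. Against myoid barcodes 16 were higher and 0 lower. Abcb1a (P-glycoprotein, chr5:8660077-8748575, plus strand), the efflux pump that keeps drugs out of the brain and the testis, stood at 498, 471 and 507 CPM in controls and at 507, 492 and 431 in smoking libraries. The groups overlapped, and the 6 values lay close together. The mesenchymal class had 0 UMIs, so the members were at least 166-fold higher (3 counts over the class as the floor), and the myoid class had 3 UMIs in all, a ratio of 156 (95% counting interval 53.4 to 757), with an edgeR adjusted p of 1.4e-08. Both calls were lost with DESeq2, which gave an adjusted p of 0.272 against mesenchyme and 0.147 against myoid barcodes, where its fitted log2 fold was 8.52. Abcg2, a second efflux pump, stood at 744 ± 99.3 against 23.5 ± 9.86 in mesenchyme (log2 fold 4.36 ± 0.38).

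Mfsd2a (chr4:122946850-122961188, minus strand), which carries the omega-3 fatty acid DHA into the brain and is known to hold down vesicle traffic there, stood at 327, 527 and 388 in controls and at 491, 353 and 393 in smoking libraries. The groups overlapped, and mesenchyme had 2 UMIs in all, a ratio of 211 (95% counting interval 58.3 to 1739), with an edgeR adjusted p of 1.8e-11. Slco1a4, an organic anion carrier, stood at 302 ± 46.1 with 0 UMIs in mesenchyme, at least 102-fold higher. Slc2a1 (GLUT1), the glucose carrier of the blood-brain barrier, stood at 278 ± 47.3 (log2 fold over mesenchyme 4.69 ± 0.51). Slc39a8, a carrier of zinc and manganese, stood at 1310.2 ± 137 (6.93 ± 0.48) and the taurine carrier Slc6a6 at 872 ± 178 (2.26 ± 0.30). Slc7a5 and Slc3a2, the light and heavy chain of an amino acid exchanger, stood at 256 ± 31.7 and 943 ± 144 in the members and at 114 ± 32.6 and 1219 ± 136 in Leydig barcodes.

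Not every gene of that list was present. Slco1c1, the thyroid hormone carrier of brain vessels, and Abcb1b, the near copy of Abcb1a, each had 0 UMIs over the 148 members, and reads of such near copies could be split in counting. Slc38a5, a glutamine carrier, had 1 UMI and stood at 348 ± 141 in mesenchyme. The 3 transporters lower than in mesenchyme were Slc38a5, the anion carrier Slco2b1 (log2 fold -3.04 ± 0.52) and the nucleoside carrier Slc29a1 (-2.17 ± 0.28). Slc29a1 stood at 131 ± 43.2 in the members and 409 ± 39.8 in mesenchyme.

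**Figure D3:**
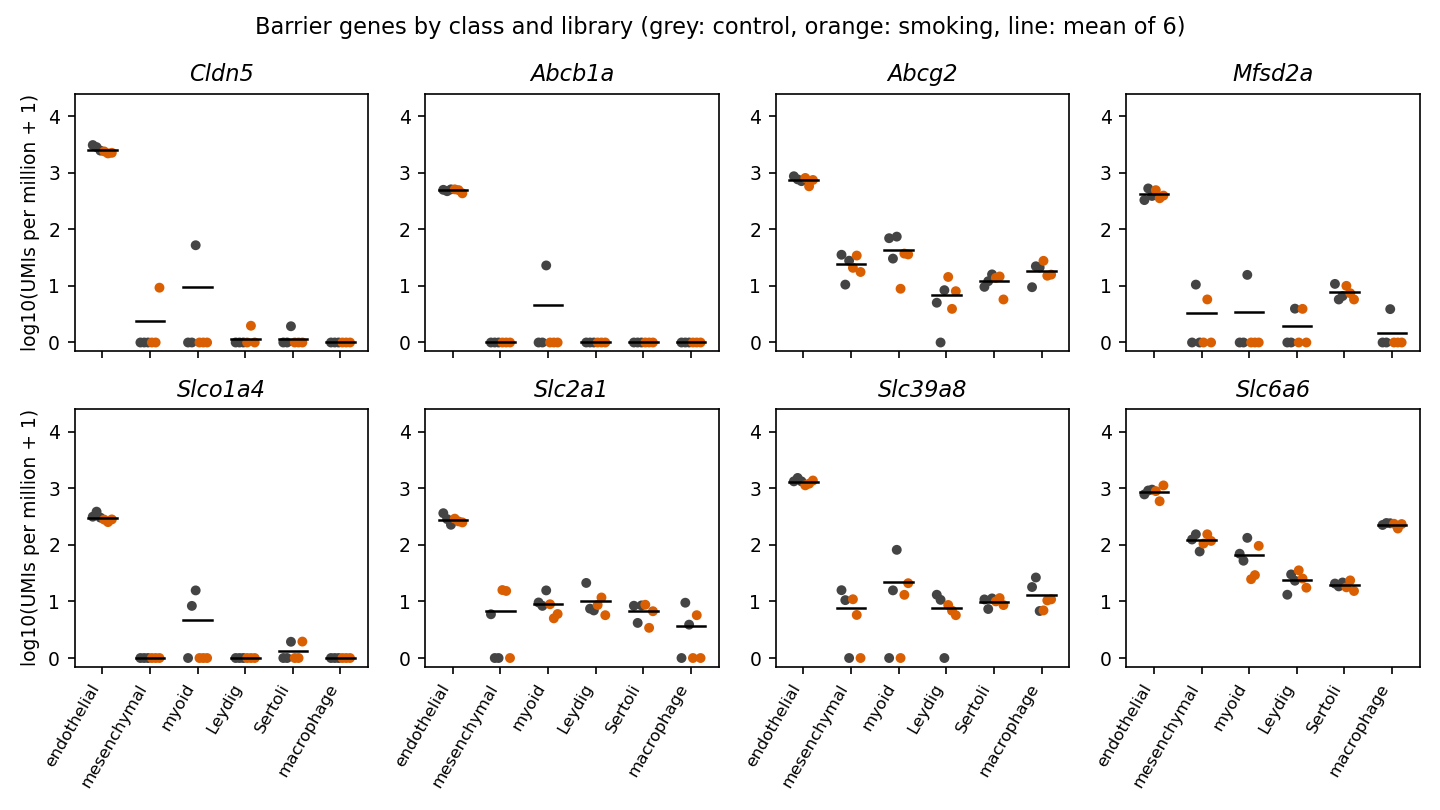
Each panel gives 1 junction or transporter gene (Cldn5, Abcb1a, Abcg2, Mfsd2a, Slco1a4, Slc2a1, Slc39a8, Slc6a6), with cell classes on the horizontal axis and log10 of CPM plus 1 on the vertical axis, 1 point per library (grey control, orange smoking) and a line at the mean of 6. Endothelial points lie at 2192 to 3082 CPM for Cldn5 and 431 to 507 for Abcb1a, which was at 0 in every mesenchymal library.

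The signals and factors that induce a brain-type barrier were the third group. Wnt signalling through Fzd4 and the transcription factor Lef1 is known to switch on barrier genes in brain vessels. Of 10 tested genes of this list 7 were higher than in mesenchyme and 10 higher than in myoid barcodes, and 0 were lower, with 8 of 11 higher than in mesenchyme without the deep barcodes. Lef1 stood at 159.7 ± 41.9 against 5.79 ± 5.74 in mesenchyme (log2 fold 3.89 ± 0.52), and the receptor Fzd4 at 98.2 ± 31.7 against 13.7 ± 11.7 (2.27 ± 0.59). Sox17, an arterial factor that acts downstream of Wnt, stood at 248 ± 53.0 against 4.59 ± 4.01 (5.22 ± 0.49). Axin2, a standard Wnt target, stood at 59.8 ± 29.2 against 14.0 ± 6.47 (1.54 ± 0.51, edgeR adjusted p = 0.031, not tested without the deep barcodes), and the receptor Tnfrsf19 at 86.7 ± 10.3 with 0 UMIs in mesenchyme. Foxf2, a transcription factor known from the pericytes of brain vessels, had 0 UMIs.

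Promoters are shown for 4 genes on which the barrier and signalling results turn, so that the letters of Wnt-responsive sites stand beside the levels. Each line gives the 250 bases before the RefSeq start in GRCm38.p6, on the gene's own strand from 5′ to 3′. Capitals mark matches, searched on both strands, to CTTTGA (TCF/LEF factors), ACAAAG (SOX factors) or CGGAAG (ETS factors). TCAAAG is CTTTGA on the other strand, and it shares CAAAG with the SOX letters. The lines are from chr16:18776597-18776846 (plus strand) for Cldn5, chr4:122961189-122961438 (minus strand) for Mfsd2a, chr2:127656696-127656945 (minus strand) for Mal and chr6:117168285-117168534 (plus strand) for Cxcl12.
Cldn5: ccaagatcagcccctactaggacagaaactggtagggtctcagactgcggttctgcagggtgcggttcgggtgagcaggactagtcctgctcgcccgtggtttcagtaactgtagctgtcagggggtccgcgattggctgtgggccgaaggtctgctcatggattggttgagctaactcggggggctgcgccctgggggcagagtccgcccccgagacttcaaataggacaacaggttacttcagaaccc
Mfsd2a: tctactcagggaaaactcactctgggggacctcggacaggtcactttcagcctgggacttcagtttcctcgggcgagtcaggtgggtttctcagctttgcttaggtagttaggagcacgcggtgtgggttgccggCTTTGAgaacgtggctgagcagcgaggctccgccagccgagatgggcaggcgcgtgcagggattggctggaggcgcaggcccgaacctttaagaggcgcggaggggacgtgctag
Mal: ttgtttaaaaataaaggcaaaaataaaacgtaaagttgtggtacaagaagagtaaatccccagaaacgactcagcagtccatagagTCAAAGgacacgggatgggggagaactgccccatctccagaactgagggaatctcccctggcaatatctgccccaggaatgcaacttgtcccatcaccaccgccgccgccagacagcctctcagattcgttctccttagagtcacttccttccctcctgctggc
Cxcl12: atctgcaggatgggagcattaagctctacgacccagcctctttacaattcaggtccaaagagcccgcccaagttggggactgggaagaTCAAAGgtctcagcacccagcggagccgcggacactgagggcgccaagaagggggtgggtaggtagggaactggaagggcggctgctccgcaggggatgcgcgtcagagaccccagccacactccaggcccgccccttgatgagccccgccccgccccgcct
Mfsd2a, Mal and Cxcl12 each held 1 match to the TCF/LEF letters and Cldn5 held none of the 3 motifs. Of the 18 barrier transporters with at least 20 UMIs, 13 had a RefSeq entry under their symbol, and 7 of the 13 (53.8%) held CTTTGA against 15.8% of 27025 genes with an entry. The same 13 held ACAAAG in 4 cases (30.8% against 18.6%), CGGAAG in 2 (15.4% against 15.3%), the E-box CACGTG in 4 (30.8% against 6.86%) and the KLF letters CACCC in 10 (76.9% against 54.5%). The RefSeq start of Abcb1a lies far upstream of its GENCODE gene start, so its window is not shown. The share with CTTTGA was 3 of 16 (18.8%) in the pan-endothelial list and 4 of 15 (26.7%) among the 20 genes of largest fold over all other barcodes, counting genes with an entry. A match is a description of letters and not a bound site, and nothing was tested from these counts.

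The 20 genes with the largest fold over all other retained barcodes, among those above the mean of the 5 other somatic classes in every library, were Aplnr, Dll4, Mal, Srarp, Abcb1a, Gbp4, Ptn, Slco1a4, Myct1, Gm32688, Sema3g, Syt15, Mmrn2, Scgb3a1, Icam2, Ctla2a, Zfp366, Clec14a, Cldn5 and Tmem252. They are a description, since the rule chose these barcodes. Aplnr is the receptor for apelin, Dll4 a Notch ligand, Mmrn2 and Clec14a partners at the vessel surface, and Icam2 an adhesion molecule of resting endothelium. Mal, a lipid-raft protein best known from myelin and epithelia (chr2:127633226-127656695, minus strand), stood at 1364, 1408 and 1395 CPM in controls and 1424, 1262 and 1531 in smoking libraries. It had a UMI in 130 of the 148 members (87.8%) and in 0% of macrophage barcodes, with 0 UMIs in mesenchyme, where the members were at least 471-fold higher. Ptn (pleiotrophin), a heparin-binding growth factor, stood at 978 ± 173 against 10.6 ± 6.86 in mesenchyme. Ctla2a, an inhibitor of cysteine proteases, stood at 1217 ± 212 against 9.64 ± 10.7 in mesenchyme. Among single barcodes the Spearman correlation was 0.498 between Cldn5 and Mal, 0.501 between Abcb1a and Mal and 0.268 between Cldn5 and Abcb1a, as descriptions over 148 barcodes that share libraries and differ in depth.

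Genes of arteries, capillaries and veins were present side by side. Of 15 tested arterial genes 10 were higher than in mesenchyme and 3 were lower, the latter being the elastic fibre genes Eln, Fbln5 and Ltbp4, and without the deep barcodes 12 of 15 were higher and the same 3 lower. Sema3g, a semaphorin of arteries, stood at 70.9 ± 9.97 with 0 UMIs in mesenchyme, at least 24.4-fold higher. Efnb2, the arterial ephrin, stood at 88.1 ± 19.7 (log2 fold 3.45 ± 0.49), while the arterial connexin Gja5 had 5 UMIs. Gja4, also an arterial connexin, stood at 264 in the set with mural RNA, 66.3 in the set without and 155 ± 18.1 in myoid barcodes. Of 10 tested capillary genes 4 were higher than in mesenchyme and 0 lower, and 7 of 11 were higher without the deep barcodes. Car4, a carbonic anhydrase on the capillary surface, stood at 409 ± 88.1 with 0 UMIs in mesenchyme, at least 143-fold higher. Of 14 tested venous genes 4 were higher and 4 lower, among the latter Bgn, Il6st and Vcam1, and 5 and 3 of 13 without the deep barcodes. Vwf, the carrier of a clotting factor stored in endothelium, stood at 309 ± 72.7 against 1 UMI in all, a ratio of 325 (95% counting interval 58.3 to 12823) in mesenchyme, and Ackr1, the chemokine receptor of venules, had 3 UMIs in 1 barcode. Nr2f2, a factor of veins and lymphatics, stood at 235 in the set with mural RNA, 38.2 in the set without and 699 in the lymphatic set.

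Ligands and receptors of vessel growth were read by role. Vegfa, the main ligand, stood at 119 ± 27.4 in the members, in 81 of 148 barcodes (54.7%) and in 0% of macrophages, against 30.6 ± 25.7 in mesenchyme and 15.7 ± 11.3 in myoid barcodes. The log2 fold was 1.42 ± 0.49 over mesenchyme (edgeR adjusted p = 0.042), a call lost under 5 alternatives (1.47 without control 3, 1.22 without smoking 1, 1.54 without smoking 2, 1.32 without members passing another marker rule and 1.35 with stricter other classes), and 3.76 ± 0.56 over myoid barcodes. The co-receptor Nrp1 stood at 258 ± 57.9 and was higher than in myoid barcodes (2.13 ± 0.41), with a log2 fold of 0.65 ± 0.38 over mesenchyme (edgeR adjusted p = 0.26, and 1.36 ± 0.21 without the deep barcodes). Tek (Tie2), the angiopoietin receptor, stood at 113 ± 25.3 against 4.82 ± 8.02 in mesenchyme (3.60 ± 0.58). Its ligand Angpt2 stood at 24.3 ± 12.1.

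Of 8 tested Notch genes 7 were higher than in mesenchyme and 4 higher than in myoid barcodes, with 0 lower, and without the deep barcodes 8 of 8 were higher than in mesenchyme. The ligand Dll4 stood at 93.6 ± 33.6 with 0 UMIs in mesenchymal and 0 in myoid barcodes, at least 32.2-fold and 30.2-fold higher. Both Dll4 calls were lost with DESeq2 (adjusted p of 0.463 against mesenchyme and 0.233 against myoid barcodes). DESeq2 also lost the calls of Tnfrsf19 (0.374 and 0.183) and Mmrn2 (0.251 and 0.0865), and that of Sema3g against mesenchyme (0.497). The ligand Jag2 stood at 73.7 ± 15.6 with 0 UMIs in mesenchyme, and the receptor Notch1 at 125 ± 12.1 (log2 fold over mesenchyme 4.32 ± 0.79). Receptors and targets of BMP and TGF-beta signalling gave 5 higher and 2 lower of 17 tested against mesenchyme, and 9 higher of 16 without the deep barcodes. Eng (endoglin), a co-receptor, stood at 647 ± 134 against 87.6 ± 50.2 (2.39 ± 0.37, and 3.09 ± 0.23 without the deep barcodes) and its partner receptor Acvrl1 at 175 ± 20.7 against 44.8 ± 12.2 (1.39 ± 0.33). The BMP target Id1 stood at 984 ± 156 against 209.7 ± 64.9 (1.69 ± 0.33, and 2.40 ± 0.18 without the deep barcodes).

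Endothelial transcription factors gave 12 higher and 0 lower of 20 tested against mesenchyme, and 17 higher of 21 without the deep barcodes. Against myoid barcodes 15 were higher and 1 lower. Erg, an ETS factor that keeps endothelial identity, stood at 102 ± 20.5 with 0 UMIs in mesenchymal and 0 in myoid barcodes, at least 34.2-fold and 32.2-fold higher. Fli1, its close relative, stood at 238 ± 36.6 and at 59.2 ± 18.5 in macrophages. Sox18 stood at 263 ± 65.7 with 0 UMIs in mesenchyme. Epas1 (HIF-2 alpha), an oxygen-sensing factor of endothelium, stood at 538 ± 76.8 against 43.6 ± 9.99 (3.04 ± 0.39).

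The counts for factors that act on spermatogonia differed with the class compared. Against mesenchyme they gave 1 higher, 4 lower and 3 not called of 8 tested (without the deep barcodes 1 higher and 3 lower of 7), and against myoid barcodes 5 were higher and 0 lower. The gene higher than in mesenchyme was Cxcl12 (chr6:117168535-117181367, plus strand), the chemokine that acts on stem cells through CXCR4. Cxcl12 stood at 1349.9, 1558 and 1262 CPM in controls and at 1342, 1208 and 1407 in smoking libraries, and the groups overlapped. The next highest class means were 186 ± 33.3 in mesenchyme, 112 ± 39.9 in Leydig and 26.4 ± 13.3 in myoid barcodes, and the log2 fold over mesenchyme was 2.28 ± 0.27 (edgeR adjusted p = 4.6e-08). It had a UMI in 139 of 148 members (93.9%) against 0.246% of macrophages. The 4 genes lower than in mesenchyme were Csf1, Igf1, Wnt5a and Wnt6. Csf1, the macrophage growth factor, stood at 37.3 ± 13.4 against 123 ± 32.3 in mesenchyme (log2 fold -2.27 ± 0.39, and -1.54 ± 0.29 without the deep barcodes), and its log2 fold over myoid barcodes was 3.83 ± 0.64. Wnt6 had 30 UMIs in 8 members and stood at 313 ± 101 in mesenchyme and 394 ± 82.3 in Leydig barcodes. Kitl, the ligand of the KIT receptor on differentiating spermatogonia, stood at 155 ± 24.9 in the members, 105 ± 27.3 in mesenchyme, 68.4 ± 31.2 in myoid and 41.1 ± 14.2 in Sertoli barcodes. Its log2 fold was -0.06 ± 0.36 over mesenchyme (edgeR adjusted p = 0.95) and 1.76 ± 0.40 over myoid barcodes. Gdnf, a growth factor of stem spermatogonia, had 0 UMIs.

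**Figure D4:**
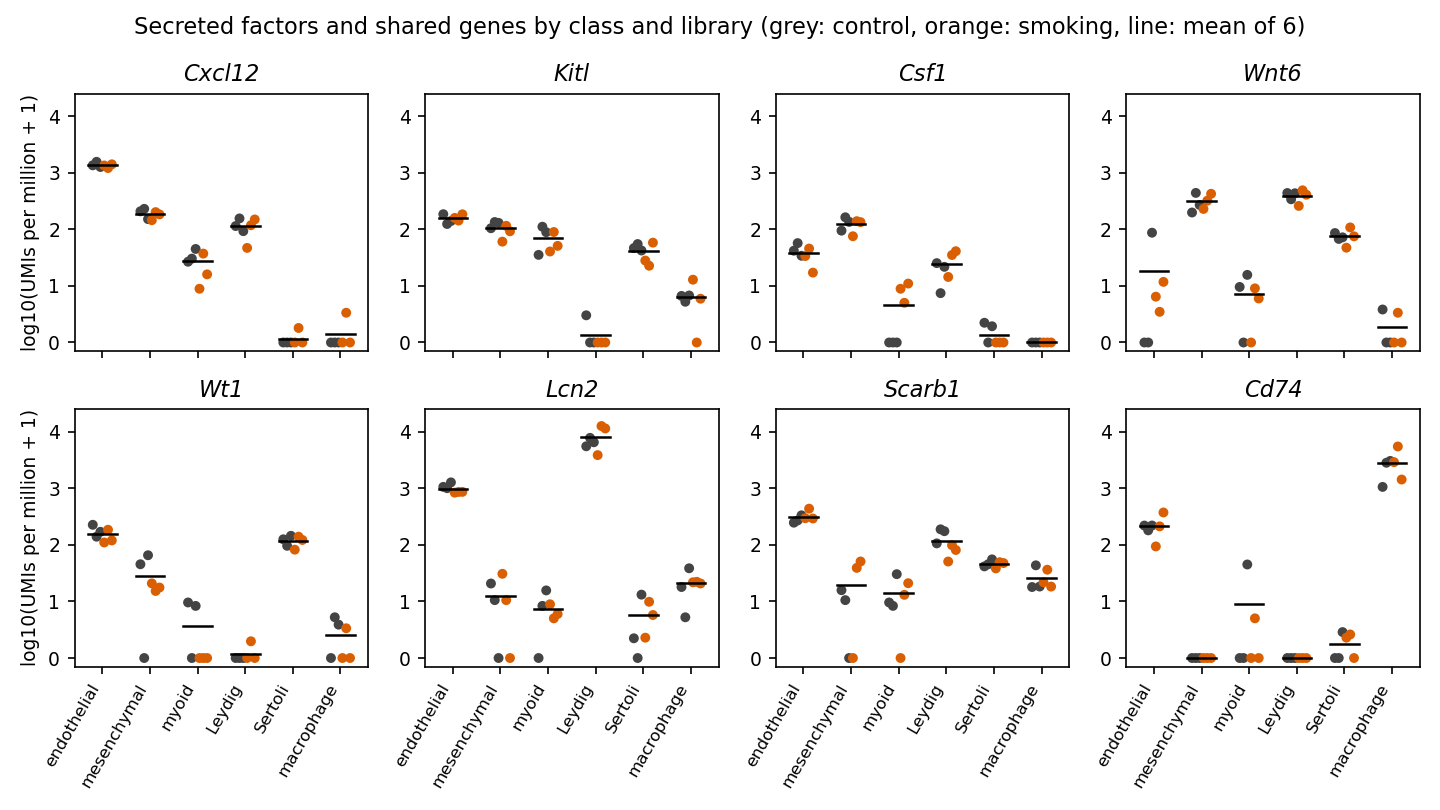
Panels for Cxcl12, Kitl, Csf1, Wnt6, Wt1, Lcn2, Scarb1 and Cd74 give log10 of CPM plus 1 (vertical axis) by cell class (horizontal axis), 1 point per library (grey control, orange smoking) and a line at the mean of 6. Endothelial Cxcl12 lies at 1208 to 1558 CPM in the 6 libraries, while Wnt6 averages 313 ± 101 in mesenchymal libraries.

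Hormone receptors were read next. Ramp2, a subunit of the adrenomedullin receptor, stood at 698 ± 159 against 70.5 ± 26.4 (2.63 ± 0.34) and its partner Calcrl at 76.7 ± 23.5 against 41.7 ± 15.5 (0.14 ± 0.42, edgeR adjusted p = 0.86). Scarb1, the receptor through which steroid-making cells take up HDL cholesterol, stood at 311 ± 67.1 in the members and 115 ± 53.8 in Leydig barcodes, against 18.7 ± 20.7 in mesenchyme (3.53 ± 0.43). Genes of fatty acid uptake in heart and muscle capillaries were sparse, with 1 UMI of Lpl and 33 UMIs of Gpihbp1 in 9 barcodes. Among genes of vessel tone and clotting, Nos3, the endothelial nitric oxide synthase, stood at 57.4 ± 19.4 against 2 UMIs in all, a ratio of 30.7 (95% counting interval 8.49 to 253) in mesenchyme, and Procr, the protein C receptor, stood at 134 ± 28.7 with 1 UMI in mesenchyme. Thbd (thrombomodulin) was lower than in mesenchyme, at 54.6 ± 7.83 against 162 ± 45.5 (-2.14 ± 0.34). Edn1 (endothelin 1) stood at 91.9 ± 60.0, with 0 UMIs in mesenchyme.

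Genes of antigen presentation were next. Of 10 tested genes of MHC class I and II 8 were higher than in mesenchyme and 10 higher than in myoid barcodes. H2-D1, a class I heavy chain, stood at 1419.5 ± 282 in the members and 1369 ± 298 in macrophages, against 274 ± 104 in mesenchyme (1.81 ± 0.31). Class I genes are a family of similar sequences, so the split of reads between them is uncertain. Cd74, the invariant chain of class II, stood at 215 ± 90.4 in 67 of 148 members (45.3%), against 2784 ± 1558 in macrophages (52.5% of barcodes) and 0 in mesenchyme, where the members were at least 72.8-fold higher. The macrophage markers Csf1r and C1qa had 0 and 2 UMIs in the same 148 barcodes. Ifitm3, an antiviral membrane protein, stood at 2990.1 ± 400.2 against 889.8 ± 137 (1.19 ± 0.36), a call lost under 3 alternatives (1.07 leaving out control 2, 1.04 leaving out control 3, and 0.70 with an edgeR adjusted p of 0.238 when members passing another marker rule were left out). Isg15, an interferon-induced modifier, stood at 264 ± 85.7 against 20.1 ± 7.77 (3.13 ± 0.55). Of the adhesion molecules, Icam1 stood at 457 ± 38.4 against 139.8 ± 44.2 (1.17 ± 0.43, edgeR adjusted p = 0.051, and 1.84 ± 0.24 without the deep barcodes), while Vcam1 was lower, at 71.1 ± 49.7 against 434 ± 85.0 (-3.18 ± 0.45). Lcn2 (lipocalin 2), which binds iron carriers of bacteria, stood at 981 ± 167 in 131 of 148 members (88.5%) and at 7932 ± 3408 in Leydig barcodes, and 8.62% of macrophages held a UMI of it. Its log2 fold over mesenchyme was 5.63 ± 0.52. The Leydig list of 8 genes summed to 13.6 to 1584 CPM in control and 19.9 to 21.8 in smoking libraries, and its part in the Lcn2 level was not tested.

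Wt1, a transcription factor used to mark Sertoli cells, was found in the endothelial members too (chr2:105126529-105173616, plus strand). It stood at 225, 138 and 169 CPM in controls and 109, 184 and 119 in smoking libraries, and averaged 117 ± 24.4 in Sertoli barcodes. It had a UMI in 87 of 148 members (58.8%) against 0.739% of macrophages. Wt1 was one of the genes used to draw the Sertoli class, so its levels are a description. The other Sertoli genes of that rule were near 0 in the members, with 1 UMI of Sox9, 7 of Cldn11, 13 of Rhox8 and 0 of Fshr. Wt1 stood at 176 in the set with mural RNA, 151 in the set without and 0 in the lymphatic set, and its Spearman correlation with Abcb1a across the 148 barcodes was 0.362, a description.

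Matrix genes completed the lists. Of 16 tested basement membrane and integrin genes 2 were higher and 5 lower than in mesenchyme, and 5 and 5 without the deep barcodes. Itga6, a laminin receptor, stood at 104 ± 21.9 against 3 UMIs in all, a ratio of 35.4 (95% counting interval 12.1 to 172) in mesenchyme, and Sparc, a collagen-binding matrix protein, at 4931 ± 1397 against 1639.5 ± 725 (1.09 ± 0.42, edgeR adjusted p = 0.067, and 1.77 ± 0.20 without the deep barcodes). Dcn (decorin), a proteoglycan of mesenchyme, stood at 5.48 ± 6.60 against 9138 ± 2179, a log2 fold of -11.56 ± 0.60.

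The comparison of smoking with control was read last, since the members are few per library. The members made up 0.280% ± 0.0867 of retained barcodes in control libraries and 0.311% ± 0.127 in smoking libraries (SD, n = 3 each). Pooled, 71 of 25317 control barcodes (0.280%, exact Clopper-Pearson 95% interval 0.219 to 0.354) and 82 of 26477 smoking barcodes (0.310%, 0.246 to 0.384) were members, and the intervals, which cover counting error only, overlapped. The difference of the means was 0.0308 percentage points (exact permutation test, two-sided, p = 0.8, where 20 assignments cannot give a p under 0.1). It turned to -0.0185 without control 1 and to -0.0425 without smoking 2. The number of endothelial cells in the tissue and the share of them recovered cannot be told apart. Barcodes with mural RNA made up 57.1, 55.6 and 37.9% of members of at most 50000 UMIs in controls and 31.6, 39.5 and 14.3% in smoking libraries, with means of 50.2% ± 10.7 and 28.4% ± 12.9, and the groups overlapped. The summed mural list did not overlap, at 2614 to 3303 CPM in controls and 992 to 2438 in smoking libraries. Sums of several other lists did not overlap either. Lower with smoking were basement membrane and integrins (7514 to 9030 and 4344 to 7382), Notch (1163 to 1248 and 798 to 1129), barrier junctions, Wnt and NRF2. The mesenchymal list was higher, and other sums, such as that of the pan-endothelial list, overlapped. On all 153 members 9 of 10 tested mural genes had an unadjusted edgeR p under 0.05, beside 988 of 4883 over all genes. Their median log2 fold was -1.32 beside -0.022 over all genes. On the 148 members 3 of 10 mural genes did, beside 294 of 4037 over all genes, with a median of -0.45 beside 0.022. In edgeR 0 of the 10 passed the adjusted test either way.

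In the summed members edgeR called no gene between smoking and control, and other settings did. Of 4883 genes tested on all 153 members edgeR called 0 higher (0%) and 0 lower (0%) at an adjusted p under 0.05, while 988 had an unadjusted p under 0.05 and DESeq2 called 71. The edgeR count was 2797 with at least 6 UMIs of the rule genes, 2015 without control 1 and 666 with no filter on low counts. Without the 5 deep barcodes edgeR called 0 of 4037 genes (0% each way), 294 had an unadjusted p under 0.05 and DESeq2 called 2, while edgeR called 0 at 6 UMIs, 0 without control 1, 81 with no filter, 15 without smoking 1 and 5 without smoking 3. Among the 5 genes of smallest p on all members, 4 had most of their UMIs in the deep barcodes. Ankrd7 had a log2 fold of 3.51 ± 0.58 (edgeR adjusted p = 0.215), and 367 of 394 UMIs came from those 5. Sgms2 (3.01 ± 0.52), 1700003I22Rik (3.12 ± 0.55) and Tmed6 (3.02 ± 0.58) had 119 of 136, 128 of 153 and 108 of 132 UMIs there. G0s2, an inhibitor of fat breakdown, had 0 of 118 UMIs there, with a log2 fold of -2.14 ± 0.41 on all members and -1.25 ± 0.40 on the 148. It stood at 135 CPM in the set with mural RNA and 0 in the set without, beside the shares of that set given above, and their part in the difference was not tested. The adjusted p on all members was 0.215 for each of the 5 genes.

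On the 148 members the genes of smallest p were Igfbp5, Mgp, 1700024G13Rik, Cnn2 and Sparc, each with an edgeR adjusted p of 0.67. Igfbp5, a binding protein of insulin-like growth factors, stood at 13.6, 3.74 and 29.8 CPM in controls and 262, 122 and 59.3 in smoking libraries (log2 fold 3.16 ± 0.61). It stood at 16.7 in the set with mural RNA and 16.1 in the set without, against 80.7 in the pooled 148 members. Most of its 120 UMIs thus came from the 11 barcodes between these sets and the 6 with lymphatic genes. The part of these barcodes in the Igfbp5 difference was not tested. Mgp, an inhibitor of calcification made by vessel walls and mesenchyme, stood at 341, 646 and 633 in controls and 1315, 1076 and 862 in smoking libraries (1.07 ± 0.23), and on all 153 members its log2 fold was 0.20, which turned to -0.05 without control 1. The groups did not overlap for either gene. Mgp stood at 694 in the set with mural RNA, 1169 in the set without and 2798 ± 417 in mesenchyme, and the mesenchymal list of 10 genes, which holds Mgp, summed to 518 to 755 in controls and 959 to 1446 in smoking libraries. The part of these in the difference was not tested. Sparc stood at 6211, 6650.3 and 5211 in controls and 4801, 3598 and 3115 in smoking libraries (-0.56 ± 0.14). It stood at 5873 in the set with mural RNA and 3717 in the set without, beside the shares of that set given above, and their part in the difference was not tested.

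**Figure D5:**
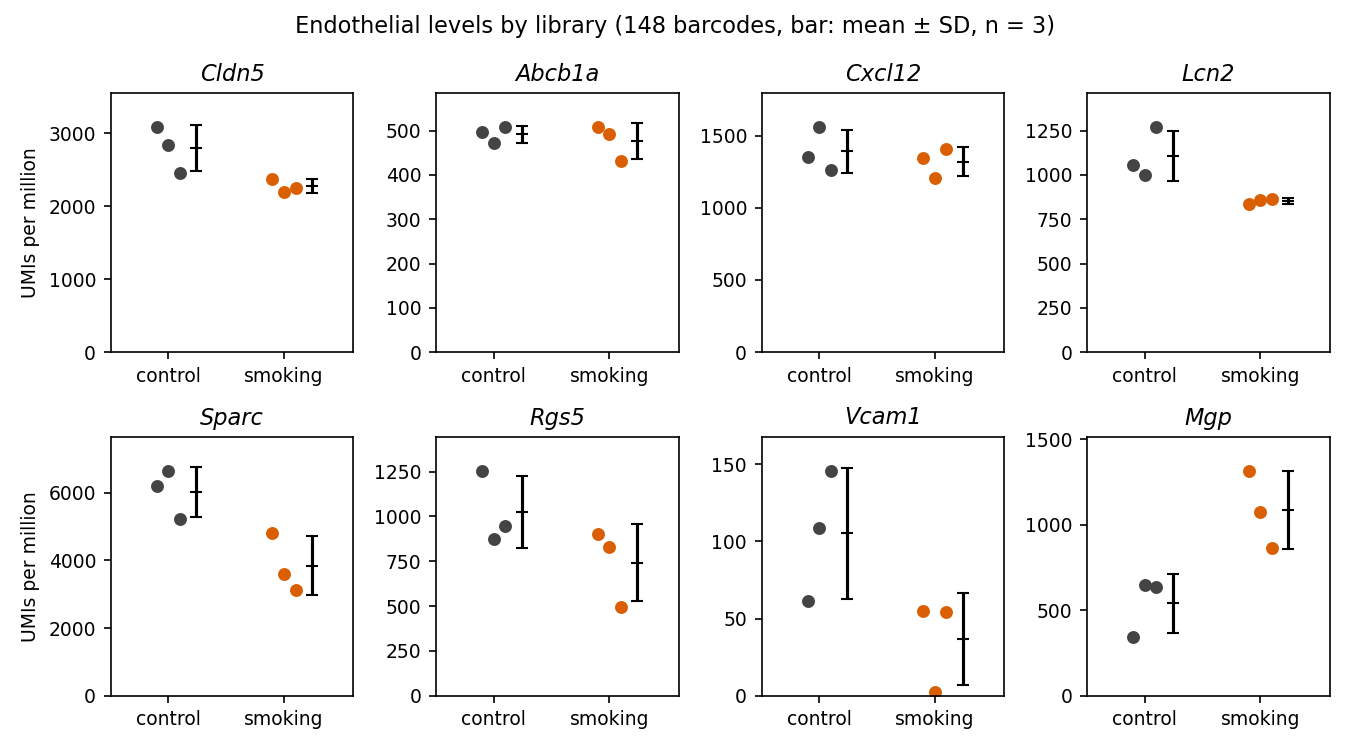
Panels for Cldn5, Abcb1a, Cxcl12, Lcn2, Sparc, Rgs5, Vcam1 and Mgp give CPM of the members of at most 50000 UMIs on a linear vertical axis from 0, with the 3 control and 3 smoking libraries on the horizontal axis, 1 point per library and a bar for the mean ± SD. Abcb1a stood at 498, 471 and 507 in controls and 507, 492 and 431 in smoking libraries, and Mgp does not overlap between the groups.

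Barrier and signalling genes were then set side by side. Among 8574 genes with at least 20 UMIs in the 148 members, the libraries of the groups did not overlap for 391 genes that were above control in every smoking library (4.56%) and 622 that were below (7.25%). Of 397 such genes in any list 12 lay above and 40 below. Cldn5 was below, at 2727 CPM in the pooled controls (exact Poisson 95% interval 2607 to 2851) and 2249.8 (2145 to 2358) in the pooled smoking members. These intervals cover counting error only. The log2 folds in this and the next paragraph are on the 148 members, and that of Cldn5 was -0.20 ± 0.12 (edgeR adjusted p = 0.71). Abcb1a stood at 492 (441 to 546) and 481 (433 to 533), with a log2 fold of 0.05 ± 0.17 (edgeR adjusted p = 0.97). Mfsd2a stood at 427 and 395, and Cxcl12 at 1391 and 1288 (0.02 ± 0.14). Of 18 barrier transporters with at least 20 UMIs, 3 lay below (Slc7a1, Slco1a4, Slc29a1) and 0 above, beside 7.25% below and 4.56% above over all genes.

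Genes of endothelial activation lay below in 4 of 13 cases (Lcn2, Vcam1, Cxcl10, Icam2) and above in 1 (Lrg1), beside 7.25% below and 4.56% above over all genes. Lcn2 stood at 1057, 1001 and 1269 in controls and 835, 859.9 and 862 in smoking libraries. Vcam1 stood at 61.4, 108 and 146 in controls and 54.6, 2.49 and 53.9 in smoking libraries. The chemokine Cxcl10 stood at 143, 161 and 176 in controls and 104, 62.1 and 64.7 in smoking libraries (-1.03 ± 0.26, edgeR adjusted p = 0.67). Ramp2, H2-Ab1, Ace and the interferon-induced Gbp2 and Gbp4 lay above in every smoking library. H2-Ab1, a class II chain, stood at 75.0, 29.9 and 72.9 in controls and 104, 102 and 119 in smoking libraries, and Ace, the enzyme that makes angiotensin II, at 54.5, 67.2 and 23.2 and 136, 82.0 and 178. None of these genes passed the test between smoking and control. Members rich in spermatid RNA lay in smoking 3 (27.9% and 16.3% of their UMIs) and smoking 2 (27.2%), and their part in the Ace level was not tested.

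Several genes known to answer tobacco smoke through the aryl hydrocarbon receptor were near 0. Cyp1a1, the classic target of that receptor, had 3 UMIs, Cyp1b1 had 1, the repressor Ahrr had 5 and Aldh3a1 had 0. Ahr itself stood at 21.5 ± 14.5 in controls and 33.0 ± 10.2 in smoking libraries, and its target Tiparp at 60.4 ± 26.4 and 51.7 ± 34.2, and both overlapped between the groups. The NRF2 and antioxidant list was well detected, with a sum of 4677 to 5804 CPM in controls and 4355 to 4647 in smoking libraries. Of 23 NRF2 and antioxidant genes with at least 20 UMIs, 4 had every smoking library below every control library (Prdx1, Sod3, Keap1, Sod2) and 0 the reverse, beside 7.25% below and 4.56% above over all genes. Sod3, the extracellular superoxide dismutase, stood at 81.8, 74.7 and 119 in controls and 60.0, 39.8 and 21.6 in smoking libraries, with means of 91.9 ± 23.9 and 40.4 ± 19.2.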

How the data were processed

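The deposited counts are UMIs per gene and barcode for 30905 genes in 6 libraries (3 control, 3 smoking), made with Cell Ranger 7.1.0 against mm10 per the submitters' processing notes, although the file headers name Cell Ranger 3.1.0. Barcodes were kept at a mitochondrial share of at most 20%. Members and the other somatic classes were drawn by marker genes (at least 4 UMIs from at least 3 of 7 genes), and classes kept barcodes passing only their own rule. Doublets were marked with scrublet in scanpy 1.11.5 (Python 3.11.15) at 0.8% per 1000 barcodes and kept. Raw UMIs were summed per class and library and tested with edgeR 4.0.16 (R 4.3.3) by quasi-likelihood with TMM scaling, filterByExpr and Benjamini-Hochberg adjustment at 0.05, and DESeq2 1.42.0 was an alternative. The fits were tested on simulated data. Genes used to draw a class got no test against it. The share of members was compared by an exact permutation test over libraries. Intervals are at 95% and cover counting error only.

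The members and the 40 gene lists were chosen with earlier results of these data known. The named genes were the 7 of the rule, list genes with at least 20 UMIs in the members or defining genes at 0 (up to 6 a list by UMIs, and those passing a test), the 20 with the largest fold over other barcodes among those with at least 50 UMIs and above the mean of the other classes in every library, and the 5 of smallest p in each smoking fit. A few list genes with fewer UMIs, and genes whose libraries did not overlap between groups, were named after their values were seen. Alternatives were a marker threshold of 6 UMIs, a mitochondrial limit of 10%, members without other gates, doublet calls or high spermatid RNA, each library left out, DESeq2 and its size factors, no filter on low counts, and stricter other classes of 8 UMIs. Leaving out barcodes over 50000 UMIs from every class, alone and with other choices, was added after seeing the data.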

Additional observations from a re-analysis of the deposited data

How the results depend on the processing

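The difference in the share of members was 0.0308 percentage points and ranged from -0.0425 (without smoking replicate 2) to 0.0691 over libraries left out, with -0.0185 without control replicate 1. The count of genes called between smoking and control, 0 in the fit reported, was 2797 with at least 6 UMIs of the rule genes, 71 with DESeq2 and 666 with no filter on low counts, and 0 to 2015 over libraries left out (2015 without control replicate 1). Without the barcodes over 50000 UMIs it was 0 at 6 UMIs and without control replicate 1, 2 with DESeq2, 81 with no filter, and 0 to 15 over libraries left out, with 15 without smoking replicate 1 and 5 without smoking replicate 3. The cause was not tested. Against mesenchyme 1427 genes were called, and 2349 with no filter, where more genes were tested. Of the 1427, 587 were higher and 840 lower, and the split turned to 958 and 484 without smoking replicate 3, 965 and 579 without the fifth of members highest in spermatid RNA and 1082 and 761 without the barcodes over 50000 UMIs. Against myoid barcodes 3401 were called, 1551 without members that also passed another marker rule, and 1814 to 4202 over libraries left out (2152 without control replicate 2, 1814 without control replicate 3). DESeq2 size factors moved the median log2 fold of all genes against myoid barcodes from -0.016 to 0.122. Of the named genes' log2 folds under the alternatives, 657 kept their call and direction against mesenchyme, 14 lost it and 10 gained one, and against myoid barcodes 679 kept it and 4 lost it. Between smoking and control 105 kept it, 31 gained a call, and Mgp, at 0.205, ranged from -0.051 (without control replicate 1) to 0.465 over libraries left out. No paired analysis was possible because the labels give no replicate numbers and do not tie libraries to mice (the numbers 1 to 3 used here only name libraries). With 148 barcodes and 1487369 UMIs, genes under about 20 UMIs could not be compared between groups.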

Other observations

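Genes that respond to tissue dissociation and genes of oxygen and sugar use were read as well. Of 20 tested immediate early genes 2 were higher in the members than in mesenchyme and 11 without the deep barcodes, and Fos, an early transcription factor, stood at 3979 ± 938 CPM against 1815 ± 737 in mesenchyme. Of 20 tested hypoxia and glycolysis genes 6 were higher and 2 lower than in mesenchyme, and 8 and 2 of 19 without the deep barcodes. Klf2, a transcription factor that answers blood flow, stood at 966 ± 184 and Klf4, its relative, at 921 ± 195. Mki67, a gene of dividing cells, had 13 UMIs in 5 of the 148 members, whereas the cell cycle list gave 1 higher of 9 tested, and 2 higher and 1 lower without the deep barcodes.

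Genes that steer growing vessels and nerves were read last. Of 12 tested guidance and ephrin genes 7 were higher than in mesenchyme and 4 were lower (Efnb1, Sema3c, Slit2, Slit3). Without the deep barcodes 8 were higher and 1 (Slit3) lower of 10, and against myoid barcodes 10 were higher and 0 lower of 12. Plxnd1, a semaphorin receptor of endothelium, stood at 170.5 ± 42.5 against 24.2 ± 16.6 (log2 fold 2.24 ± 0.53). Pdgfb, the growth factor with which endothelium recruits pericytes, stood at 84.3 ± 18.6 with 0 UMIs in mesenchyme.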
